A study of Homo sapiens with 10 samples.

Results

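Transcript levels of the TGF-beta pathway were examined in RPE p53-/- cells, a human line labelled as pigmented epithelium of the retina, through 9 genes: the ligands TGFB1, TGFB2 and TGFB3, the receptors TGFBR1, TGFBR2 and TGFBR3, the signal transducer SMAD3, the inhibitory SMAD7, and LTBP2, of the latent TGF-beta binding protein family. They were taken from the deposited gene table by name, 9 of 62700 genes, and all 9 were among the 18979 genes with enough counts to test. The compared groups were RPE p53-/- cells with CCAR1 knockout (5 samples) and RPE p53-/- parental control cells (5 samples). Both groups lack p53 and were cultured in one serum-containing medium. CCAR1 is described by the series as a splicing factor, and the stated purpose was to look for effects of its loss across the genome. The labels do not say whether the knockout cells are 1 clone or whether replicates were separate cultures, so the p-values reflect only how far these samples vary, and that variation may be technical.

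TGF-beta ligands are secreted as latent dimers held by their own propeptides and tethered to the extracellular matrix by members of the latent TGF-beta binding protein family. Once released, a ligand brings together the type II receptor TGFBR2 and the type I receptor TGFBR1, with the co-receptor TGFBR3 (betaglycan) helping above all TGFB2 to bind. The activated type I receptor phosphorylates SMAD2 and SMAD3, which enter the nucleus with SMAD4, and SMAD7 is induced as a brake that acts on the receptor. In retinal pigment epithelium the pathway is known for its part in epithelial-mesenchymal change and in fibrosis.

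In each genotype, replicates 1 to 3 (called shallow here) had totals of 52.6 to 65.2 M estimated counts (M, 1e6), and replicates 4 and 5 (called deep) had totals of 320.6 to 385.4 M. The shallow libraries stood apart in content too. Skeletal muscle markers (11 of 12 listed were in the table) summed to 243.1 to 543.9 CPM in shallow knockout and 476.7 to 625.8 CPM in shallow parental libraries, against 10.6 to 11.2 CPM in deep knockout and 8.81 to 9.61 CPM in deep parental libraries, CPM being counts per 1e6 of the scaled library size. Erythroid markers summed to 22.3 to 182 CPM in shallow knockout and 23.0 to 103 CPM in shallow parental libraries, and to at most 0.268 CPM in deep knockout and 0.267 CPM in deep parental libraries. Liver markers summed to 69.7 to 124 CPM in shallow knockout and 44.5 to 123 CPM in shallow parental libraries, against 3.21 to 3.26 CPM in deep knockout and 1.96 to 2.46 CPM in deep parental libraries. The part of this content in the results was not tested. Each genotype has 3 shallow and 2 deep libraries, and values are therefore also given within each depth. Of 12 pigment epithelium markers, 5 (RPE65, RLBP1, PMEL, TYRP1 and LRAT) were below 1 CPM in every library. OTX2 rose, at 16.6 CPM in knockout and 10.9 CPM in parental cells (edgeR adjusted p = 1.94e-04). BEST1 (0.0124) and, below 1 CPM, LRAT (0.0302) also rose. MITF, which averaged 38.3 CPM in knockout and 39.1 CPM in parental cells, did not pass, nor did KRT8, KRT18, TTR and SERPINF1. Markers of fibroblasts, all 8 of them reaching 1 CPM in some library, summed to 471.1 to 566.9 CPM in knockout libraries and 382.5 to 429.2 CPM in parental libraries. Most of the sum was THY1, which averaged 431 CPM in knockout and 348 CPM in parental cells. PDGFRA, PDGFRB, FAP, S100A4 and THY1 rose. COL6A3 (log2 fold change 0.72), DPT (-0.44) and LUM (-0.54) did not pass. The part of the fibroblast markers in the results below was not tested. CCAR1 itself was at 106 ± 18.5 CPM in knockout and 148 ± 23.5 CPM in parental cells (SD, n = 5 each, edgeR adjusted p = 0.0201). This call was lost without parental replicate 5 (0.0504), with library size only (0.0525) and with chromosome medians removed (0.121). Within each depth the knockout libraries lay below the parental ones. The log2 fold change of CCAR1 was -0.51 in the shallow libraries (edgeR adjusted p = 1.19e-06) and -0.48 in the deep ones (3.97e-11).

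Of the 9 genes, LTBP2, TGFB3 and SMAD7 rose in knockout cells, TGFB2 fell, and TGFB1, the 3 receptors and SMAD3 did not pass the test. LTBP2 had the widest change, 3.14-fold higher, and TGFB2 was 1.98-fold lower. Genes were called by the quasi-likelihood test of edgeR at a Benjamini-Hochberg adjusted p under 0.05 over all 18979 genes, which called 36.6% of all genes, 19.7% as higher and 16.9% as lower. The 4 called genes are 44.4% of the 9, and nothing particular to the 9 is read from that count. The median log2 fold change over the 9 genes was -0.06, against 0.02 over all genes tested, so the set had no common direction. With the replicate number as a block, 4 of the 9 were called higher and 4 lower, against 31.1% and 30.1% of all genes (61.2% in all); TGFB1 was then among the higher and TGFBR1, TGFBR2 and TGFBR3 among the lower genes. Depth as a term likewise gave 4 higher and 4 lower, against 32.7% and 31.3% of all genes (64.0% in all). The shallow libraries alone gave 3 higher and 4 lower, against 26.5% and 26.2% (52.7% in all), and the deep ones alone 3 and 5, against 28.9% and 28.1% (57.0% in all). DESeq2 gave 3 and 2, against 20.5% and 20.8% (41.3% in all). Subtracting the median log2 fold change of each gene's chromosome gave 3 and 1, with 33.5% of all genes called. Knockout and parental libraries had separate ranges in 4 of the 9 genes (30.6% of all genes), and in 8, all but SMAD3, they were separate in one direction within either depth (53.9% of all genes).

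**Figure D1:**
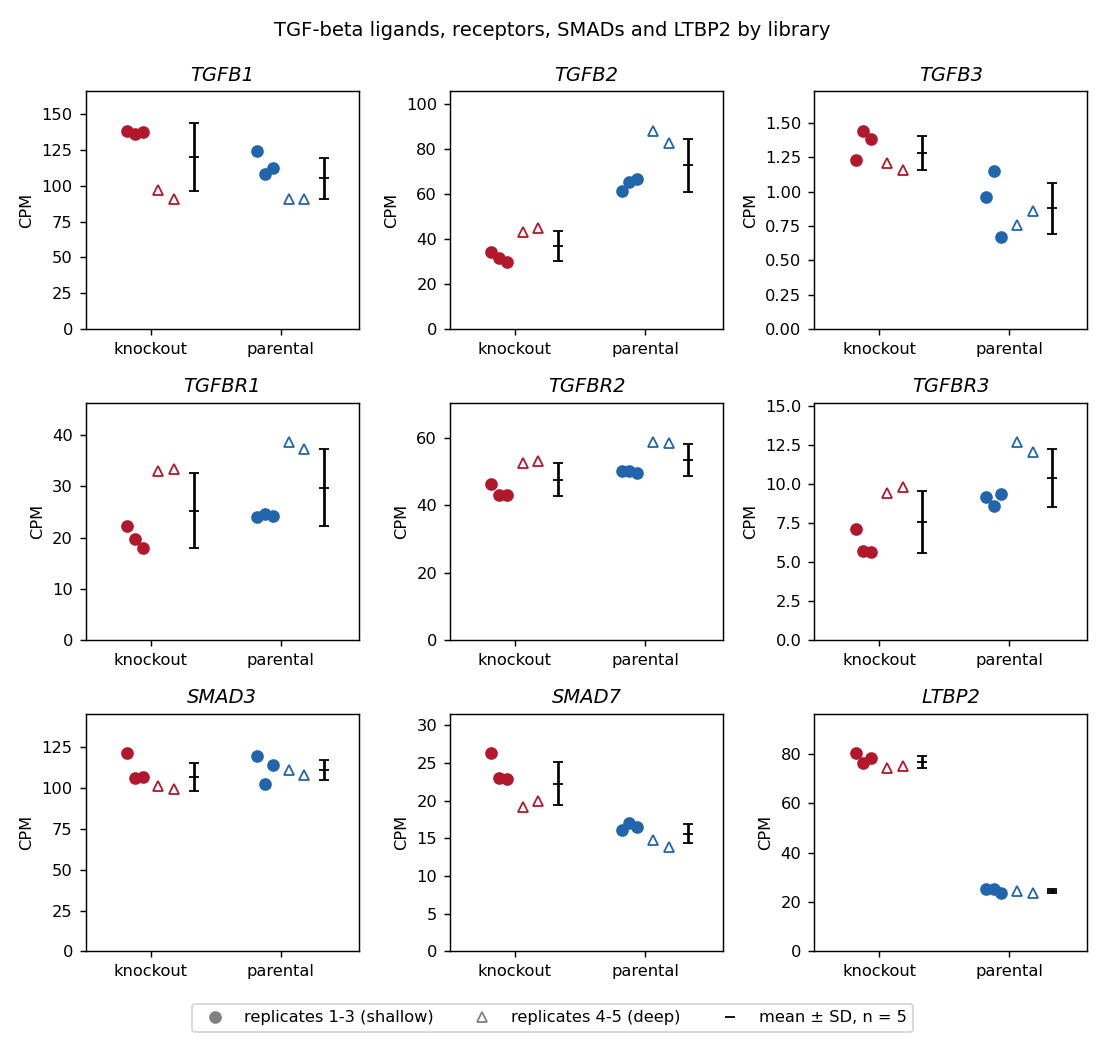
CPM of the 9 genes in each library, knockout on the left and parental on the right of every panel; filled circles are shallow libraries, open triangles deep libraries, and the bar gives the mean ± SD over 5 libraries. LTBP2, TGFB2, TGFB3 and SMAD7 have no overlap between genotypes, and within each depth the genotypes are apart for every gene but SMAD3. For TGFB1, TGFB2, TGFBR1, TGFBR2, TGFBR3 and SMAD7 the shallow and deep libraries do not overlap in either genotype.

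TGFB1 (ENSG00000105329.11, chromosome 19, 41301587 to 41353911, hg38), the widely expressed isoform, was at 138, 136, 138, 97.3 and 91.0 CPM in knockout replicates 1 to 5, against 124, 108, 112, 90.6 and 90.7 CPM in parental replicates 1 to 5. Each knockout library lay above the parental libraries of its own depth, while the pooled ranges overlapped. Knockout over parental, the log2 fold change of TGFB1 came to 0.19 (SE 0.15, 95% interval -0.14 to 0.52, edgeR adjusted p = 0.358; permutation p = 0.302, exact and two-sided on log2 CPM). It was 0.25 in the shallow libraries (edgeR adjusted p = 0.00222) and 0.04 in the deep ones (0.317), and the block gave 0.18 (0.0125). Protein-coding genes of chromosome 19 had a median log2 fold change of 0.17, and with the chromosome medians removed TGFB1 was at 0.02 (edgeR adjusted p = 0.948). The annotated span of TGFB1 overlaps those of HNRNPUL1, CCDC97 and TMEM91 on the other strand. Overlap of exons was not checked and whether counting used strand is not given, so any reads from shared stretches could be split either way.

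TGFB2 (ENSG00000092969.12, chromosome 1, 218346235 to 218444619), the isoform that relies on betaglycan for high-affinity binding, was at 34.3, 31.7, 29.9, 43.1 and 44.6 CPM in the knockout libraries, against 61.2, 65.2, 66.7, 87.8 and 82.3 CPM in the parental libraries. The highest knockout library was below the lowest parental one. TGFB2 averaged 36.7 ± 6.72 CPM in knockout and 72.7 ± 11.7 CPM in parental cells (SD, n = 5 each), which is a log2 fold change of -0.98 (SE 0.15, edgeR adjusted p = 4.13e-04). The exact two-sided permutation p of 0.00794 is the smallest that 252 arrangements can give. The shallow libraries gave -1.02 and the deep ones -0.97.

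TGFB3 (ENSG00000119699.8, chromosome 14, 75958099 to 75982991), an isoform studied mainly in palate development and wound repair, was scarce in every library. It had 66, 75 and 77 estimated counts in the shallow knockout libraries and 415 and 389 in the deep ones, against 61, 65 and 38 in the shallow parental libraries and 288 and 273 in the deep ones. That corresponds to 1.23, 1.44, 1.38, 1.21 and 1.16 CPM in knockout replicates 1 to 5, against 0.960, 1.15, 0.672, 0.761 and 0.857 CPM in the parental ones. The groups were apart only narrowly, with the lowest knockout value at 1.16 CPM and the highest parental value at 1.15 CPM. TGFB3 rose 1.46-fold (0.55 on the log2 scale, SE 0.15; edgeR adjusted p = 0.0178; exact two-sided permutation p = 0.0159). The shallow libraries alone gave 0.53 (edgeR adjusted p = 0.0576), the deep ones 0.53 (8.06e-04), and without a filter on low counts the call was lost (0.0695). The span of TGFB3 overlaps that of IFT43, an intraflagellar transport gene on the other strand that rose, at 13.2 CPM in knockout and 7.22 CPM in parental cells (edgeR adjusted p = 2.22e-04). Whether their exons overlap was not checked, and reads shared between the pair, if there are any, cannot be told apart here.

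To set levels of different genes side by side, CPM was divided by kilobases of exon in GENCODE 29. The authors' estimated counts may rest on another annotation, so the per-kilobase shares, ratios and orders hold only for these lengths. On this scale TGFB1 was the main ligand gene in both genotypes. It made up 86.1 to 87.5% of the summed ligand level in shallow knockout libraries, against 72.1 to 76.0% in shallow parental libraries, and 76.0 to 77.7% in deep knockout libraries, against 61.9 to 63.4% in deep parental libraries. The share of TGFB2 was 11.9 to 13.4% in shallow knockout and 23.6 to 27.4% in shallow parental libraries, and 21.7 to 23.4% in deep knockout and 36.2 to 37.7% in deep parental libraries. Within each depth the genotypes did not overlap in either share. TGFB3 stayed at 0.504 to 0.637% in knockout and 0.286 to 0.505% in parental libraries. The summed ligand level was 44.5 ± 6.12 CPM per kilobase in knockout and 46.8 ± 2.44 CPM per kilobase in parental cells (SD, n = 5 each), with overlapping ranges, and in the deep libraries it was 37.0 to 38.7 CPM per kilobase in knockout and 44.2 to 45.2 CPM per kilobase in parental cells. The shares do not depend on how the libraries are scaled. In bulk RNA, fewer cells expressing a gene and less RNA per cell cannot be told apart.

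**Figure D2:**
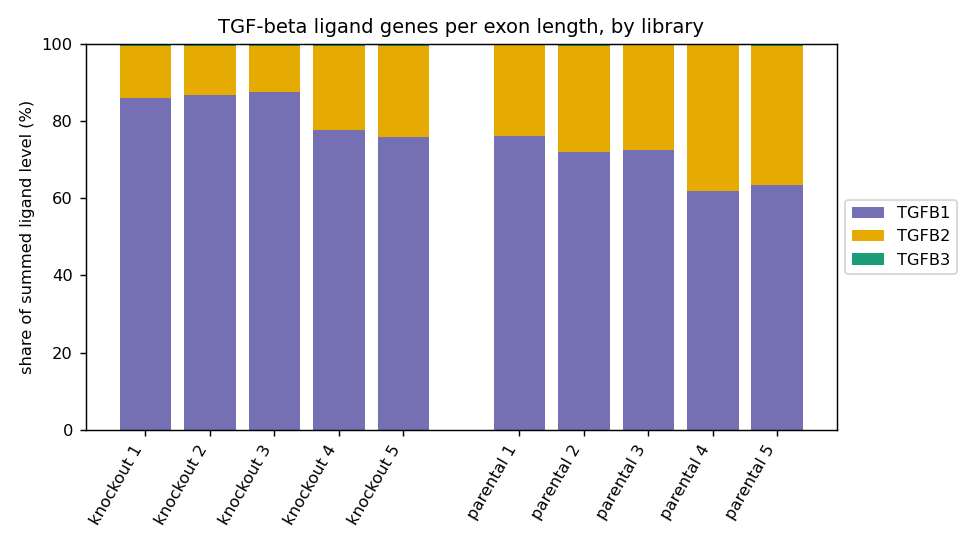
Share of TGFB1, TGFB2 and TGFB3 in their summed level, in percent of CPM per kilobase of exon, with 1 bar per library, knockout on the left and parental on the right. The TGFB2 share is smaller in knockout than in parental libraries of the same depth, and larger in replicates 4 and 5 than in replicates 1 to 3 of either genotype.

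LTBP2 (ENSG00000119681.12, chromosome 14, 74498170 to 74612378), a microfibril-associated member of the latent TGF-beta binding protein family that, unlike LTBP1 and LTBP3, does not bind latent TGF-beta, was at 80.3, 76.4, 78.2, 74.3 and 75.3 CPM in the knockout libraries, against 25.4, 25.1, 23.8, 24.6 and 23.8 CPM in the parental libraries. The replicates of each genotype lay close together at both depths, and the genotypes were far apart. The means were 76.9 ± 2.40 CPM in knockout and 24.5 ± 0.752 CPM in parental cells (SD, n = 5 each). LTBP2 was thus 1.65 higher on the log2 scale (SE 0.053; edgeR adjusted p = 1.25e-08; exact two-sided permutation p = 0.00794). Of all genes tested, 4.18% had a log2 fold change at least as large in either direction. The shallow libraries gave 1.65 and the deep ones 1.61.

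LTBP2 and TGFB3 lie 1346 kb apart on chromosome 14. Of the 17 protein-coding genes tested between them, 4 were higher and 2 lower in knockout cells. Over all genes tested, 19.7% were higher and 16.9% lower, and nothing particular to this stretch is read from the count. The median log2 fold change of the 17 genes was 0.09, and that of the whole chromosome was 0.04. With the chromosome medians removed the log2 fold change was 1.61 for LTBP2 (edgeR adjusted p = 1.31e-08) and 0.51 for TGFB3 (0.0276).

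TGFBR1 (ENSG00000106799.14, chromosome 9, 99104038 to 99154192), the type I receptor kinase that phosphorylates SMAD2 and SMAD3, was at 22.2, 19.8, 18.0, 32.98 and 33.3 CPM in the knockout libraries, against 24.1, 24.7, 24.1, 38.6 and 37.3 CPM in the parental libraries. Knockout libraries lay below parental libraries within each depth, but the deep knockout libraries lay above the shallow parental ones. TGFBR1 differed by -0.24 on the log2 scale (SE 0.22, 95% interval -0.73 to 0.26, edgeR adjusted p = 0.463; exact two-sided permutation p = 0.349). With the replicate block this was -0.25 (SE 0.049, edgeR adjusted p = 0.00161), and within depths -0.29 and -0.21.

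TGFBR2 (ENSG00000163513.19, chromosome 3, 30606502 to 30694142), the type II receptor that binds the ligand first, was at 46.2, 43.1, 43.1, 52.5 and 53.2 CPM in the knockout libraries, against 50.3, 50.2, 49.6, 58.7 and 58.5 CPM in the parental libraries. Again the genotypes were apart within each depth and overlapped when pooled. For TGFBR2 the log2 fold change came to -0.17 (SE 0.089, 95% interval -0.36 to 0.03, edgeR adjusted p = 0.180; exact two-sided permutation p = 0.0873). The block left the size at -0.17 and gave an edgeR adjusted p of 0.00219.

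TGFBR3 (ENSG00000069702.11, chromosome 1, 91680343 to 91906335), the betaglycan co-receptor, was at 7.09, 5.71, 5.66, 9.42 and 9.81 CPM in the knockout libraries, against 9.18, 8.62, 9.34, 12.7 and 12.04 CPM in the parental libraries. The deep knockout libraries reached above the shallow parental ones, so the pooled ranges met. TGFBR3 differed by -0.46 on the log2 scale (SE 0.19, 95% interval -0.88 to -0.04, edgeR adjusted p = 0.0839; exact two-sided permutation p = 0.0794). It was -0.56 in the shallow libraries (edgeR adjusted p = 2.97e-04) and -0.38 in the deep ones (7.57e-07), and with the block -0.47 (1.94e-04). Without knockout replicate 4 it was -0.56 (edgeR adjusted p = 0.0488) and without knockout replicate 5 it was -0.57 (0.0371), so that TGFBR3 passed when either of these deep libraries was left out.

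SMAD3 (ENSG00000166949.17, chromosome 15, 67063763 to 67195195), the DNA-binding transducer downstream of the receptors, was at 121, 106, 107, 101 and 99.4 CPM in the knockout libraries, against 119, 103, 114, 111 and 108 CPM in the parental libraries. The values mingled in the shallow libraries and were lower in knockout than in parental cells in the deep ones. Over all libraries SMAD3 differed by -0.06 on the log2 scale (SE 0.070, 95% interval -0.21 to 0.10, edgeR adjusted p = 0.601; exact two-sided permutation p = 0.381), and with the replicate block it still did not pass (0.239). In the deep libraries alone it was -0.14 (edgeR adjusted p = 7.30e-05).

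SMAD7 (ENSG00000101665.10, chromosome 18, 48919853 to 48952052), the inhibitory SMAD that recruits ubiquitin ligases to the type I receptor, was at 26.3, 23.0, 22.8, 19.1 and 19.9 CPM in the knockout libraries, against 16.1, 17.01, 16.5, 14.7 and 13.8 CPM in the parental libraries. Every knockout library was above every parental library. SMAD7 rose 1.42-fold (0.51 on the log2 scale, SE 0.099; edgeR adjusted p = 0.00243; exact two-sided permutation p = 0.00794), with 0.53 from the shallow libraries and 0.43 from the deep ones. The ratio of SMAD7 to SMAD3 in CPM per kilobase was 0.375 ± 0.0224 in knockout and 0.255 ± 0.0271 in parental cells (SD, n = 5 each), and its lowest knockout value of 0.342 was above its highest parental value of 0.300.

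**Figure D3:**
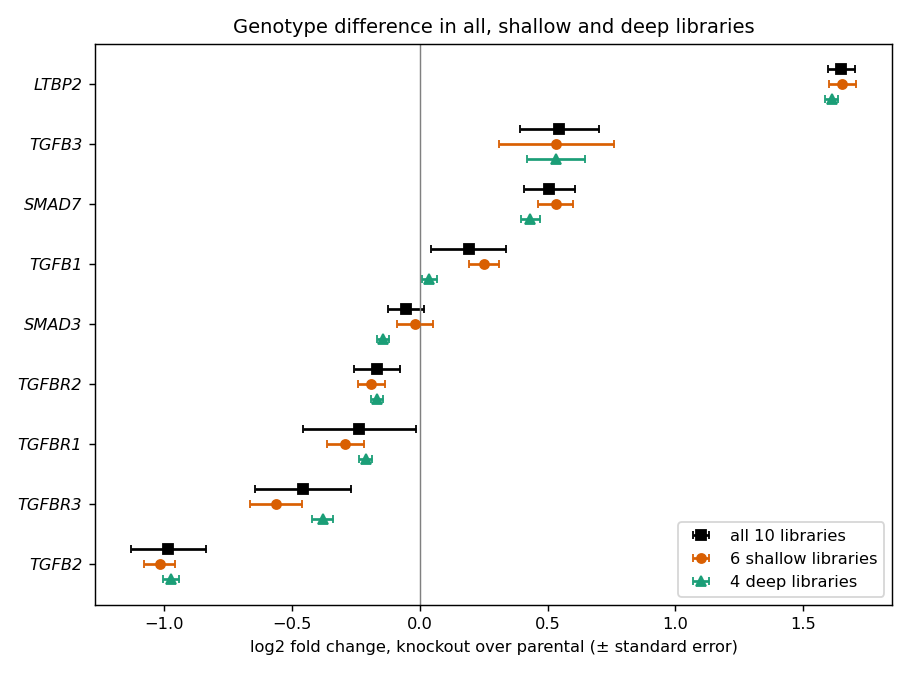
Log2 fold change of knockout over parental for the 9 genes with its standard error, from all 10 libraries (squares), the 6 shallow libraries (circles) and the 4 deep libraries (triangles). LTBP2 and TGFB2 keep their size at both depths, and TGFB1 passed the test in the shallow and not in the deep libraries, and TGFB3 and SMAD3 in the deep and not in the shallow ones.

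No gene of the 9 passed a test of whether the genotype difference itself differed between shallow and deep libraries (edgeR interaction term, smallest adjusted p = 0.197, for TGFB1); that test called 0.601% of all genes.

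Ordered by level per kilobase of exon, TGFB1 came first in knockout cells at 37.1 ± 7.36 CPM per kilobase, followed by SMAD3 (11.7 ± 0.943), TGFBR2 (10.1 ± 1.05), LTBP2 (8.46 ± 0.264), TGFB2 (7.13 ± 1.31), SMAD7 (4.42 ± 0.566), TGFBR1 (3.69 ± 1.08), TGFBR3 (0.866 ± 0.228) and TGFB3 (0.261 ± 0.0249). In parental cells TGFB1 also came first at 32.5 ± 4.48 CPM per kilobase, and TGFB2 was second at 14.1 ± 2.27, ahead of SMAD3 (12.2 ± 0.696), TGFBR2 (11.4 ± 0.998), TGFBR1 (4.35 ± 1.09), SMAD7 (3.11 ± 0.262), LTBP2 (2.70 ± 0.0827), TGFBR3 (1.19 ± 0.212) and TGFB3 (0.179 ± 0.0376). LTBP2 thus stood in place 4 in knockout and 7 in parental cells, and TGFB2 in place 5 and 2. The ranges of neighbours overlapped for SMAD3 and TGFBR2, LTBP2 and TGFB2, and SMAD7 and TGFBR1 in knockout cells, and for TGFB2 and SMAD3, SMAD3 and TGFBR2, and SMAD7 and LTBP2 in parental cells.

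The promoters of the 4 genes that passed the test are shown because these genes moved in both directions and SMAD and TEAD sites are known in TGF-beta responsive promoters. Each sequence is the 250 bases upstream of the first-listed RefSeq start (GRCh38.p14), 5′ to 3′ on the gene's strand, with capitals marking the motifs searched on both strands: the SMAD box CAGAC, the palindromic SMAD element GTCTAGAC, the AP-1 site TGANTCA and the TEAD site GGAATG. They lie at chr14:74612238-74612487 (minus strand, LTBP2), chr1:218345086-218345335 (plus strand, TGFB2), chr14:75983012-75983261 (minus strand, TGFB3) and chr18:48950966-48951215 (minus strand, SMAD7). RefSeq and GENCODE 29 place some starts differently: the TGFB2 window lies upstream of the GENCODE gene start without reaching it, the SMAD7 window lies inside the GENCODE span, and the LTBP2 window overlaps the edge of its span.
LTBP2: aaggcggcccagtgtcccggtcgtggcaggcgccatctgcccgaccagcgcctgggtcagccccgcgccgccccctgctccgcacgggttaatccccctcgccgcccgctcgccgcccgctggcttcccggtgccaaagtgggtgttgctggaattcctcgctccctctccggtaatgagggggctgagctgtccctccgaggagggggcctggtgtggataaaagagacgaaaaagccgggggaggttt
TGFB2: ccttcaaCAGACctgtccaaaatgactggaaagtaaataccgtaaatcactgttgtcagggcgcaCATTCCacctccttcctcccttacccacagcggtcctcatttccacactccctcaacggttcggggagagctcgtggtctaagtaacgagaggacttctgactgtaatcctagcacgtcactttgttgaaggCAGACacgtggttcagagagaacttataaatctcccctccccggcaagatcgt
TGFB3: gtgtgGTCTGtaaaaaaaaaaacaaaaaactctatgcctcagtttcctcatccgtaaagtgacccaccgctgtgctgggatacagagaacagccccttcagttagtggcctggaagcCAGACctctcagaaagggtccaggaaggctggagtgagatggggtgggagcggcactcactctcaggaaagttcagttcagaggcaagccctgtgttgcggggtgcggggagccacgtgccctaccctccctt
SMAD7: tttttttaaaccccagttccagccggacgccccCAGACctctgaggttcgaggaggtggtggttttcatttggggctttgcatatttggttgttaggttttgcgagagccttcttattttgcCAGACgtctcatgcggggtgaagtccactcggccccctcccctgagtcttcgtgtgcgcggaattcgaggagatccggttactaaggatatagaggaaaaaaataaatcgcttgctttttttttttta
The SMAD box occurred at 2 places each in the TGFB2, TGFB3 and SMAD7 windows and at none in the LTBP2 window. Of all 9 genes, 4 held it (TGFBR1 was the other), against 37.8% of 27305 promoters of the same length. The TEAD site was found in TGFB2 only, as its reverse complement CATTCC, with 11.9% of all promoters holding it. The AP-1 site (6.60% of promoters) and the palindromic element (0.176%) were in none of the 9 windows. Like that of SMAD7, the windows of TGFBR1, TGFBR3 and SMAD3 lie inside the GENCODE spans of their genes. Sequence outside the windows was not searched, so absence from a window does not mean absence from the gene's promoter. A match is a run of letters and not a shown binding site.

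Beyond the 9 genes, 88 further genes of the pathway in 5 lists were looked up, of which 84 could be tested: 22 were higher, 19 lower and 43 did not pass, with a median log2 fold change of 0.03. The called share was 48.8%, against 36.6% of all genes, and with the block 71.4%, against 61.2%. Of 18 genes of latency and activation 4 rose, 3 fell and 11 did not pass (38.9% called, against 36.6% of all genes). Their median log2 fold change was 0.03, and with the block 7 were called higher and 4 lower. LTBP3, which carries latent TGF-beta into the matrix, rose 3.71-fold to 209 ± 50.4 CPM in knockout, against 56.4 ± 16.1 CPM in parental cells (edgeR adjusted p = 9.46e-05). MMP14, a membrane protease that can release latent ligand, rose 1.56-fold. THBS1, thrombospondin 1, an activator of latent TGF-beta, fell 5.51-fold to 37.8 ± 10.7 CPM in knockout, against 208 ± 44.3 CPM in parental cells (edgeR adjusted p = 1.16e-05), and the microfibril gene FBN2 fell 1.97-fold.

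Of 9 receptor-level genes 8 were tested, and 2 rose, 2 fell and 4 did not pass (median 0.11; 4 and 2 called with the block). ENG, or endoglin, a co-receptor related to betaglycan, rose 5.47-fold at a low level, 6.19 ± 1.09 CPM in knockout and 1.14 ± 0.366 CPM in parental cells (edgeR adjusted p = 1.86e-05). BAMBI, a pseudoreceptor without a kinase domain that dampens signalling, rose 3.11-fold, to 15.7 ± 4.48 CPM in knockout, against 5.06 ± 0.978 CPM in parental cells. TGFBRAP1, a receptor-associated protein, fell 1.39-fold. STRAP, which binds receptors together with SMAD7, fell 1.22-fold, and its call was lost without parental replicate 4 (edgeR adjusted p = 0.0602) or 5 (0.0604), with library size only (0.0883), with no filter (0.0905) and with chromosome medians removed (0.0836).

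Of 20 SMADs and SMAD regulators 4 rose, 4 fell and 12 did not pass (median -0.06; 5 and 9 called with the block). The second inhibitory SMAD, SMAD6, rose 2.39-fold to 8.17 ± 1.88 CPM in knockout, against 3.42 ± 1.25 CPM in parental cells (edgeR adjusted p = 0.00285). NEDD4L, a ubiquitin ligase for activated SMAD2 and SMAD3, fell 2.19-fold to 108 ± 15.0 CPM in knockout, against 236 ± 28.6 CPM in parental cells (edgeR adjusted p = 2.91e-05), and SMURF2, the ligase that SMAD7 brings to the receptor, fell 1.67-fold. SMURF2 lies on chromosome 17, and with the chromosome medians removed its log2 fold change was -0.45 in place of -0.74. LDLRAD4, an inhibitor of SMAD activation, rose 1.57-fold at about 1 CPM; its call was lost without knockout replicates 1, 2 or 4 or parental replicates 2, 4 or 5 (edgeR adjusted p = 0.0518 to 0.0736), with no filter (0.0613) and in the shallow libraries alone (0.105). The partners of SMAD3 did not pass: SMAD2 was at 59.6 ± 5.92 CPM in knockout and 61.7 ± 7.76 CPM in parental cells (edgeR adjusted p = 0.765), and SMAD4 was at 43.3 ± 6.88 CPM in knockout and 52.2 ± 7.24 CPM in parental cells (0.133, and 0.00196 with the block).

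Known target genes of TGF-beta moved in both directions: of 30 tested, 11 rose, 8 fell and 11 did not pass (median 0.12; 14 and 11 called with the block). The called share of the targets was 63.3%, against 36.6% of all genes, and with the block 83.3%, against 61.2%; the lists were chosen with results of these data known, and no test of this difference was made. TGFBI, a secreted matrix protein named for its induction by TGF-beta, rose 2.99-fold to 316 ± 7.22 CPM in knockout, against 106 ± 3.92 CPM in parental cells (edgeR adjusted p = 1.17e-08). The epithelial gene repressor SNAI2 rose 4.88-fold (edgeR adjusted p = 3.89e-08). CCN2, also a target of YAP and TAZ, fell 2.88-fold (edgeR adjusted p = 2.32e-07), and the smooth muscle actin gene ACTA2 fell 1.71-fold (1.08e-04).

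In the activin branch, whose ligands use other receptors but the same SMAD2 and SMAD3, 1 of 8 tested genes rose, 2 fell and 5 did not pass. That is 37.5% called, against 36.6% of all genes. Their median log2 fold change was 0.05, and with the block 2 were called higher and 2 lower. FST, follistatin, which binds and blocks activins, fell 3.49-fold to 75.8 ± 3.79 CPM in knockout, against 264 ± 18.2 CPM in parental cells (edgeR adjusted p = 2.41e-08). The receptor gene ACVR2B fell 1.38-fold (edgeR adjusted p = 0.0218), a call lost without parental replicates 4 (0.0523) or 5 (0.0553), when only library size was used (0.0593) and without a filter (0.0570). GDF11, a ligand of this branch, rose 1.17-fold (edgeR adjusted p = 0.0424), a call lost without any of knockout replicates 1 to 3 or parental replicates 1, 2, 4 or 5 (0.0738 to 0.123), with DESeq2 size factors (0.0784), without a filter (0.150) and with the deep libraries thinned (0.0643).

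**Figure D4:**
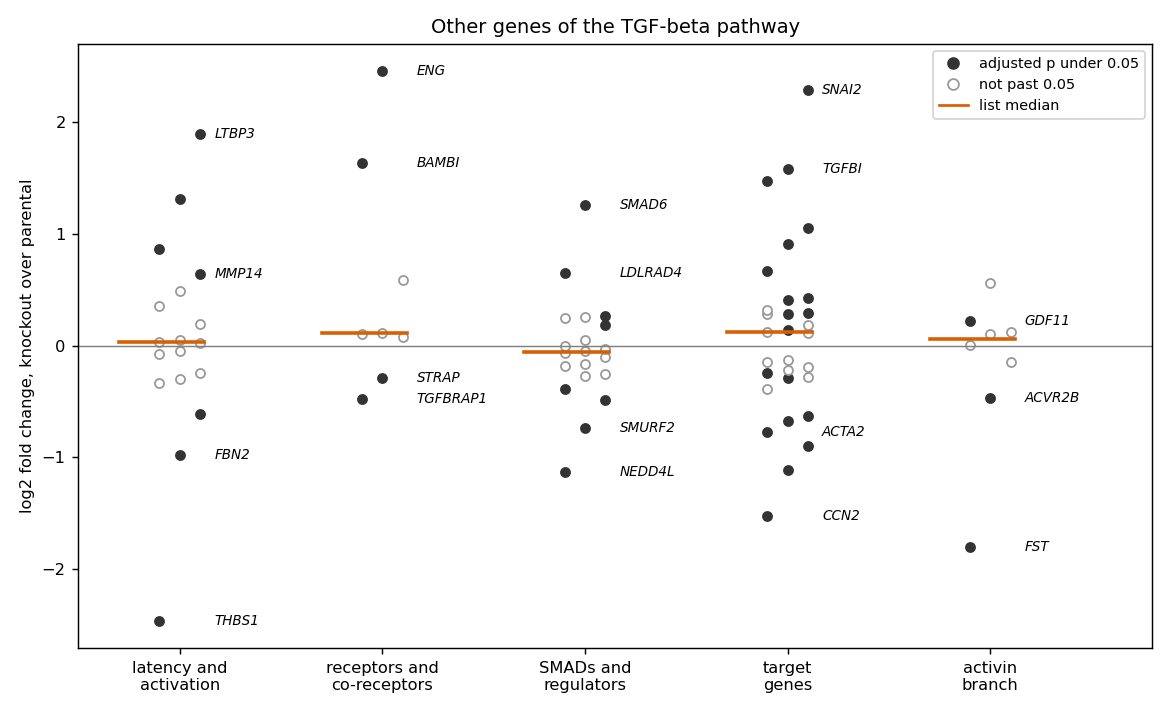
Log2 fold change of knockout over parental for the 84 further pathway genes tested, in 5 lists; filled points passed the edgeR test at 0.05, open points did not, and the orange line is the list median. Called genes lie on both sides of 0 in every list, and the list medians lie between -0.06 and 0.12.

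The genes whose log2 CPM followed LTBP2 most closely over the 10 libraries, among 10209 protein-coding genes averaging at least 5 CPM, were DUSP4, a phosphatase of the ERK pathway (Pearson r = 0.999), and ITGA5, a fibronectin receptor subunit (0.999). DUSP4 averaged 56.7 ± 4.29 CPM in knockout and 11.5 ± 0.757 CPM in parental cells (SD, n = 5 each). TGFB2 was followed most closely by GTF2I, at 139 ± 14.9 CPM in knockout and 210 ± 21.1 CPM in parental cells, and by the helicase gene DHX33, at 52.4 ± 6.55 CPM in knockout and 78.9 ± 6.54 CPM in parental cells (r = 0.998 each). SMAD7 was followed by the lysosomal peptide transporter ABCB9 (r = 0.991) and the DNA methyltransferase DNMT3A (r = 0.989). These correlations describe 10 shared libraries that differ by genotype and by depth, and both differences enter them.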

How the data were processed

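Polyadenylated RNA of 10 samples was sequenced; genotype and replicate number were read from the sample titles. The deposited table holds an estimated count per gene and library, unscaled, made by the authors with kallisto 0.48.0 and hg38, per the submitters' processing notes. How transcripts were summed to genes, and on which annotation, is not stated. Counts were rounded, filtered with filterByExpr, scaled by TMM and fitted with genotype as the term in edgeR 4.0.16 (R 4.3.3), with robust quasi-likelihood and a threshold of 0.05. Standard errors came from the coefficient and its F statistic. Permutation tests used log2 CPM with a prior count of 3. They rearranged the genotypes over all 10 libraries without regard to depth, so spread between shallow and deep libraries enters their p-values. Positions and exon lengths are from GENCODE 29 (GRCh38). The 9 genes and the lists were chosen with earlier results of these data known. Named genes were the 9, CCAR1, up to 2 genes per list and direction with the smallest adjusted p, and the 2 genes most correlated with each of the 3 members of smallest adjusted p. SMAD2 and SMAD4, as partners of SMAD3, and FBN1, as a microfibril gene beside FBN2, were also named after their values were seen.

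Libraries sharing genotype and depth were not duplicates, and all were kept. The chi-square of their counts, averaged over genes, was 6.95 to 26.5 across the library pairs, an average above sampling noise. Deviations from the group means were correlated between samples of one number (correlations 0.584 to 0.899), which pairs them by the rule set for this check. The pairing follows the depth split: within a depth the correlations were -0.0604 to -0.00521. The edgeR coefficient of variation common to all genes fell to 0.0698 when depth was a term, against 0.310 without it. The alternatives were DESeq2 1.42.0 and its size factors, limma-voom (limma 3.58.1), library size only, no filter, a filter of 1 CPM in 5 libraries, no robust step, the replicate block, a depth term, either depth alone, deep libraries thinned to 52.6 M counts, chromosome medians removed, and each library left out.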

Additional observations from a re-analysis of the deposited data

How the results depend on the processing

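LTBP2, SMAD7 and TGFB2 kept their direction and their call under all 23 alternatives, with log2 fold changes of 1.61 to 1.70, 0.43 to 0.57 and -1.06 to -0.91. TGFB3 kept its direction (0.46 to 0.65) and lost its call in 2 alternatives, with no filter (edgeR adjusted p = 0.0695) and in the shallow libraries alone (0.0576). SMAD3 changed sign with library size only (log2 fold change 3.12e-04, edgeR adjusted p = 0.998). The count of the 9 genes called higher was 2 with no filter and 3 or 4 under the other alternatives; that of genes called lower was 2 with DESeq2 (TGFB2 and TGFBR3), 4 with the replicate block, with depth as a term and in the shallow libraries alone, 5 in the deep libraries alone, and 1 to 2 with each library left out (2 without knockout replicate 4 or 5). Of the further pathway genes, 14 were called higher with no filter, and 35 higher and 32 lower in the deep libraries alone. The replicate block gave 32 and 28, and leaving out a library 15 to 23 and 15 to 19. With the chromosome medians removed, 22 of the further pathway genes were higher and 13 lower, 41.7% in all, against 33.5% of all genes. Over all genes, 5906 were higher and 5713 lower with the replicate block, 6200 and 5949 with depth as a term, 4980 and 4931 from shallow libraries alone, 7775 and 7545 from deep ones alone, and 3318 to 3709 and 2765 to 3196 with a library left out. The cause of these shifts was not tested; spread between shallow and deep libraries enters the unblocked fit. The replicate block changed the calls of TGFB1, TGFBR1, TGFBR2 and TGFBR3 and of no other of the 9 genes. TGFB3 had 38 to 77 counts per shallow library, and with the deep libraries thinned it was still called (edgeR adjusted p = 0.00949).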

Other observations

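Levels of the 9 genes also differed between deep and shallow libraries of one genotype, a comparison for which the labels give no group. TGFBR1 in deep libraries was 1.66 times its shallow mean in knockout and 1.56 times in parental cells, TGFBR3 was 1.56 and 1.37 times, and TGFB2 was 1.37 and 1.32 times. TGFB1 was 0.685 times its shallow mean in knockout and 0.790 times in parental cells, and SMAD7 was 0.812 and 0.863 times. LTBP2, at 0.955 times in knockout and 0.976 times in parental cells, moved little. For TGFB1, TGFB2, TGFBR1, TGFBR2, TGFBR3 and SMAD7 the deep and shallow ranges did not overlap in either genotype. The share of all genes with such a gap was not computed, so nothing particular to these genes is read from it. The split into shallow and deep libraries, which differ in content as well as in depth, was seen over all genes. The common coefficient of variation was 0.0698 with this split as a term, against 0.310 without it. The labels do not say what separates the sets.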
